A study of Rattus norvegicus with 24 samples.

Results

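The aryl hydrocarbon receptor (AhR) pathway was followed through 9 genes in rat lung: Ahr, Arnt, Ahrr, Tiparp, Cyp1a1, Cyp1a2, Cyp1b1, Aldh3a1 and Lrat. They were picked by gene symbol, and all 9 were present among the 14217 genes that the array annotation names singly. Each gene was represented by its brightest probe set with only 1 symbol, averaged over the 24 arrays. The arrays came from 24 male Sprague-Dawley rats, an outbred strain, with 1 Affymetrix rat array for the right caudal lung lobe of each. Each of 6 groups held 4 rats that inhaled by 2 routes, nose-only (cigarette smoke or air) and in a whole-body chamber (Iraqi sand, silica or air). The groups are written smoke + air, smoke + Iraqi sand, smoke + silica, air + Iraqi sand, air + silica and air + air, the last being air by both routes. The smoke target was 0.48 mg/L of wet total particulate matter, breathed in 3-hour sessions 5 times weekly. The sample protocols give 5 weeks of sessions, and the text of the series gives 6. The target for either particle was 1 mg/m3, with 18 hours of chamber time daily during the last 2 weeks. The age given for each rat is 17 weeks, and the sources also give an age of 10 to 15 weeks at the start. The 4 rats of a group are part of the 17 that the series names per group. The time from the last smoke session to tissue collection is not given in the sources used here.

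AhR is a ligand-activated transcription factor. Aromatic compounds such as the polycyclic hydrocarbons of cigarette smoke bind it in the cytoplasm, it enters the nucleus, pairs with ARNT, and the pair binds DNA at xenobiotic response elements. Cyp1a1, Cyp1b1 and Ahrr are textbook targets and are widely used as markers of smoke exposure in human airways. The AhR repressor (Ahrr) and Tiparp, an ADP-ribosyltransferase, are induced by the receptor and restrain it.

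The core letters of a xenobiotic response element, GCGTG on either strand (CACGC on the other), were searched in RefSeq promoter windows of build GRCr8, which run from 250 bases before to 50 bases after the start of a gene. Of the 9 genes, 7 had a window, and Cyp1a1 and Aldh3a1 had none. The windows of 2 negative feedback genes and of Cyp1b1 are shown because these genes are the textbook targets whose lung levels are given next. They lie at chr6:21094315-21094614 (Cyp1b1), chr1:30821969-30822268 (Ahrr) and chr2:152063519-152063818 (Tiparp), all on the plus strand, and capitals mark the core.
Cyp1b1: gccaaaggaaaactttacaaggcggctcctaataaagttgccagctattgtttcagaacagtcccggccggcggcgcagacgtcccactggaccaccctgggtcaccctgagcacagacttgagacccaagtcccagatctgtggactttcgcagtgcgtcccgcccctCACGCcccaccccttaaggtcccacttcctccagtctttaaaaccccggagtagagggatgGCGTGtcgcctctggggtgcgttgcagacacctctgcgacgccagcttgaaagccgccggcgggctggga
Ahrr: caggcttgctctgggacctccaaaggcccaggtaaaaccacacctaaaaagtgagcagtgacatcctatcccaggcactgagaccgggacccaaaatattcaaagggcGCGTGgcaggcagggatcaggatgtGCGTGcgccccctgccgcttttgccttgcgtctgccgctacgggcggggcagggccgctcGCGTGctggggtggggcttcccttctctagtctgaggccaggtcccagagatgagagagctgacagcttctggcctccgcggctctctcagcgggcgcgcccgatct
Tiparp: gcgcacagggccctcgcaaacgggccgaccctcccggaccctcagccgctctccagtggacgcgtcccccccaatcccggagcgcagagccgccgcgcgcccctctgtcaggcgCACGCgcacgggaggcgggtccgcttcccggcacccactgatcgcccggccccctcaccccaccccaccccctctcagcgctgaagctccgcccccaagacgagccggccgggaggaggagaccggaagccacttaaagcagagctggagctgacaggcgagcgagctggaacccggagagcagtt
The Ahrr window held 3 cores, first bases at -142, -117 and -57 from the start site, the Cyp1b1 window 2, at -81 and -20, and the Tiparp window 1, at -136. The windows of Arnt and Lrat each held 1 core, at -42 and -172, and those of Ahr and Cyp1a2 held 0. Of all 33469 windows, 29.7% held the core at least once, 10.2% at least 2 times and 3.59% at least 3 times. The longer form TNGCGTG was in 1 place each in the Cyp1b1 and Ahrr windows and in 4.89% of all windows. A match is a description of letters and does not show that a factor binds there.

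Cigarette smoke was compared with air in the lungs of rats that inhaled no particles, Iraqi sand or silica, and as the average of these 3 conditions. None of the 9 AhR pathway genes passed the test in any of them. The test was limma's moderated linear model over all 24 arrays, two-sided, with Benjamini-Hochberg adjustment over the 14217 genes and a threshold of 0.05. In rats without particles 0 members passed, against 0.893% of all genes, and 0 had an unadjusted p under the same threshold, against 9.95% of all genes. Under Iraqi sand 0 passed, against 1.29% of all genes, and 1 member, Arnt, had an unadjusted p under it, against 20.5% of all genes. Under silica 0 passed, against 0.00703% of all genes, with 2 members, Ahrr and Aldh3a1, at an unadjusted p under it, against 8.17%. Averaged over the 3 conditions 0 passed, against 6.39% of all genes, with 2 members, Arnt and Aldh3a1, at an unadjusted p under it, against 24.5%. At these background shares fewer than 1 of 9 genes would pass, so a count of 0 is near the share of all genes in each comparison. For scale, 2 genes already known to respond to smoke in these same arrays were read as well. They were picked for that response, so their p-values are a description and not an independent control. Gpnmb, a glycoprotein of lipid-laden macrophages, was 13.3 ± 0.27 in smoke + air lungs, against 11.8 ± 0.23 in air + air lungs (log2 level, SD, n = 4 each), a 2.82-fold difference (95% interval 2.14-fold to 3.72-fold, adjusted p = 3.38e-04). Cxcl1, a neutrophil chemokine, differed by 2.11 ± 0.26 in log2 level between the same groups (SE, adjusted p = 2.63e-04). Under Iraqi sand both passed, Gpnmb at 0.89 ± 0.19 and Cxcl1 at 1.31 ± 0.26 (SE, adjusted p = 0.0287 and 0.0190). Under silica neither passed, Gpnmb at 0.97 ± 0.19 and Cxcl1 at 0.43 ± 0.26 (SE, adjusted p = 0.0780 and 0.739). Silica without smoke also raised Cxcl1, by 1.74 ± 0.26 (SE, adjusted p = 0.00670).

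**Figure D1:**
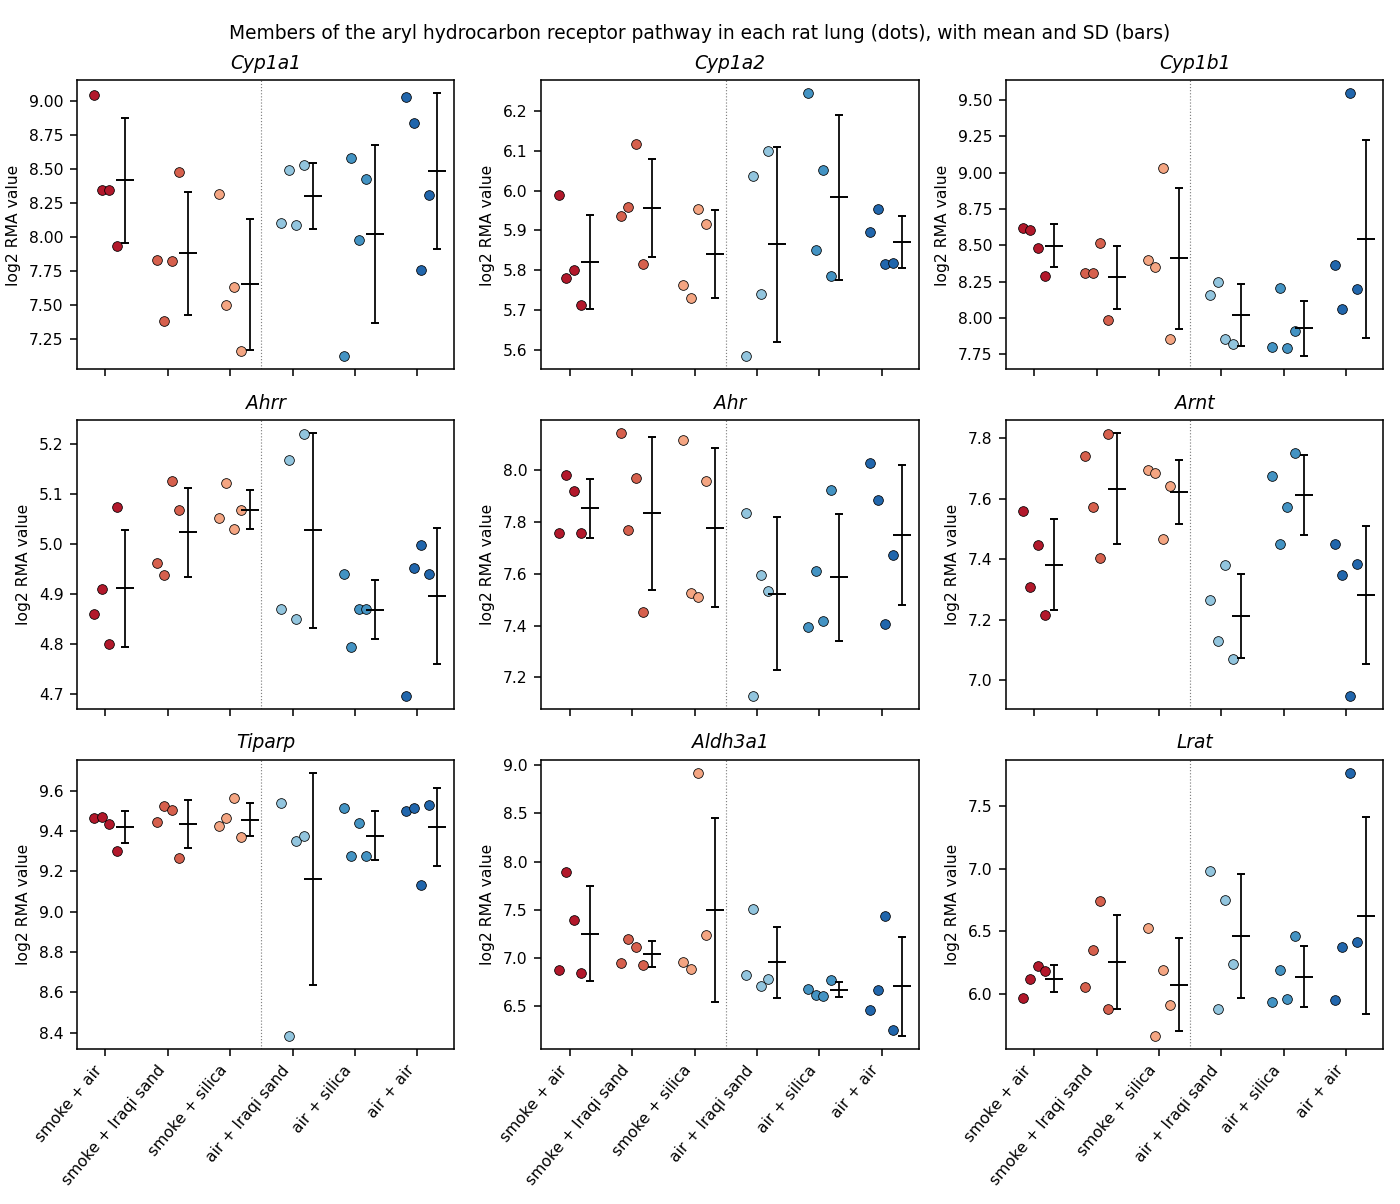
Level of each AhR pathway gene (vertical axis, log2 value after RMA) in every rat, with the 6 exposure groups along the horizontal axis and the 3 smoke groups left of the dotted line. Dots are rats, and the bars beside them give the mean and SD of 4 rats. The vertical axes differ between panels and do not start at 0. Smoke and air groups overlap for most genes, and single rats stand apart, such as rat 104 at 9.55 for Cyp1b1 and rat 604 at 8.92 for Aldh3a1.

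Cyp1a1 encodes the monooxygenase that oxidizes polycyclic hydrocarbons and is the most used readout of AhR activity. Its log2 level was 9.04, 8.35, 8.35 and 7.94 in smoke + air lungs, against 9.04, 8.84, 7.76 and 8.31 in air + air lungs. The ranges lay over each other, and the difference was -0.07 ± 0.32 (SE, 95% interval -0.74 to 0.61). The upper end of that interval is a 1.52-fold higher level with smoke. With Iraqi sand, the levels were 7.83, 7.38, 7.82 and 8.48 in smoke + Iraqi sand lungs and 8.10, 8.50, 8.09 and 8.53 in air + Iraqi sand lungs. With silica, they were 8.32, 7.50, 7.63 and 7.16 in smoke + silica lungs and 7.12, 8.58, 7.98 and 8.43 in air + silica lungs. In both particle conditions the smoke mean lay below the air mean, by a difference of -0.43 ± 0.32 under Iraqi sand and -0.37 ± 0.32 under silica (SE), and the groups overlapped. Averaged over particle conditions, the difference was -0.29 ± 0.19 (SE, 95% interval -0.68 to 0.10, adjusted p = 0.358). The upper end of that interval is a 1.07-fold higher level, for the average that includes both particle conditions, against 1.52-fold without particles. Over the alternative settings this averaged value ran from -0.51 to -0.23, and none passed the threshold. From highest to lowest, the group means ran air + air, smoke + air, air + Iraqi sand, air + silica, smoke + Iraqi sand and smoke + silica, and no gap between neighbours in that order exceeded the larger of their SDs. Cyp1a1 varied widely between rats of a group: its residual SD of 0.49 lay above that of 97.3% of genes.

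Cyp1a2, a related monooxygenase with its highest expression in liver, was dim. Its mean of 5.89 lay at the 15.9th percentile of the genes' brightness, where the RMA method compresses differences. Levels were 5.99, 5.78, 5.80 and 5.71 in smoke + air lungs and 5.89, 5.95, 5.82 and 5.82 in air + air lungs. The groups overlapped and differed by -0.05 ± 0.11 (SE). Cyp1a2 was 5.96 ± 0.12 in smoke + Iraqi sand lungs and 5.87 ± 0.24 in air + Iraqi sand lungs, and 5.84 ± 0.11 in smoke + silica lungs and 5.98 ± 0.21 in air + silica lungs (SD, n = 4 each). Averaged over particles, the difference was -0.03 ± 0.06 (SE, 95% interval -0.17 to 0.10).

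Cyp1b1 encodes the family member that activates many hydrocarbons outside the liver. Its levels were 8.62, 8.60, 8.48 and 8.29 in smoke + air lungs, against 8.36, 8.06, 9.55 and 8.20 in air + air lungs. The value of 9.55 belongs to rat 104, whose group mates averaged 8.21 ± 0.15 (SD, n = 3). With rat 104 in place the groups differed by -0.04 ± 0.25 (SE, adjusted p = 0.992). Without it the difference was 0.29 (adjusted p = 0.838), so 1 rat set the direction. With Iraqi sand, Cyp1b1 was 8.31, 8.31, 8.52 and 7.99 in smoke + Iraqi sand lungs, against 8.16, 8.25, 7.86 and 7.82 in air + Iraqi sand lungs, a difference of 0.26 ± 0.25 (SE, adjusted p = 0.550). With silica, the levels were 8.40, 8.35, 9.04 and 7.86 in smoke + silica lungs and 7.80, 8.20, 7.79 and 7.91 in air + silica lungs, a difference of 0.48 ± 0.25 (SE, adjusted p = 0.655), and 0.28 without rat 604. Here 3 of 4 smoke + silica lungs lay above all air + silica lungs, and the highest was rat 604. Averaged over particles, the difference was 0.23 ± 0.14 (SE, adjusted p = 0.331). Without rats 302, 104 and 604 it was 0.30 ± 0.08 (SE, adjusted p = 0.0338), past the threshold, against 8.31% of all genes in those 21 arrays.

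**Figure D2:**
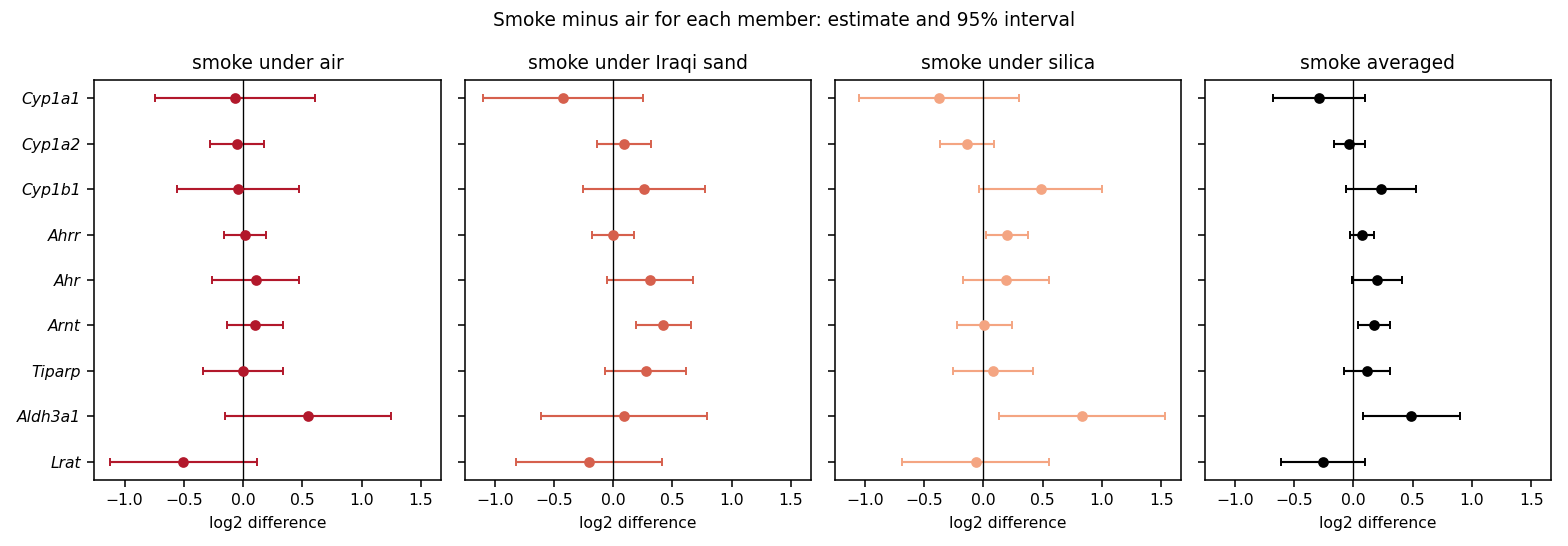
Difference in log2 level between smoke and air (horizontal axis) for each of the 9 genes, in rats without particles, with Iraqi sand, with silica, and averaged over the 3. Points are limma estimates and bars are 95% intervals. Cyp1a1 lies at or below 0 in all 4 panels, and Aldh3a1 lies above 0 in all 4 with wide intervals.

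Aldh3a1, an aldehyde dehydrogenase that removes the aldehydes found in smoke, is induced by AhR ligands in rat liver. Its levels were 6.87, 7.89, 7.39 and 6.85 in smoke + air lungs, against 6.46, 6.67, 7.44 and 6.25 in air + air lungs. The groups overlapped through rat 104 at 7.44, and the difference was 0.55 ± 0.34 (SE, adjusted p = 0.666). With silica, levels were 6.95, 6.88, 8.92 and 7.24 in smoke + silica lungs and 6.68, 6.61, 6.60 and 6.77 in air + silica lungs. Those 2 groups did not overlap, but the share of all genes without overlap there was not counted. The difference was 0.83 ± 0.34 (SE, adjusted p = 0.489). Without rat 604, the lung at 8.92, it was 0.36 (adjusted p = 0.999). With Iraqi sand, levels were 6.94, 7.20, 7.11 and 6.92 in smoke + Iraqi sand lungs and 6.82, 7.50, 6.71 and 6.78 in air + Iraqi sand lungs, where rat 302 at 7.50 was the highest of the 8. The difference there was 0.09 ± 0.34 (SE).

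Averaged over particles, Aldh3a1 differed by 0.49 ± 0.20 with smoke (SE, a fold of 1.40, 95% interval of the log2 difference 0.08 to 0.90), with an adjusted p of 0.126. Over all smoke rats its level had a lowest value of 6.85, a median of 7.03 and a highest of 8.92, against 6.25, 6.70 and 7.50 over all air rats (n = 12 each). Without rats 302, 104 and 604 the averaged difference was 0.47 ± 0.10 (SE, adjusted p = 0.00913) and that in rats without particles 0.79 ± 0.18 (SE, adjusted p = 0.0274). In those 21 arrays 8.31% and 1.96% of all genes passed in the same 2 comparisons. Leaving these rats out removes air rats 302 and 104, at an Aldh3a1 of 7.50 and 7.44, and smoke rat 604, at 8.92. It keeps smoke + air rats 203 and 204, at 7.89 and 7.39. Their level of the heart gene Myl7 was 9.15 and 9.33, against 5.62 and 5.26 in their mates, rats 201 and 205. With array quality weights, which count noisy arrays for less, the 2 differences passed as well, at 0.52 ± 0.14 (SE, adjusted p = 0.0119) and 0.76 ± 0.22 (SE, adjusted p = 0.0397), where 18.6% and 7.87% of all genes passed.

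The 5 lungs with the highest Aldh3a1 were those of rats 604, 203, 302, 104 and 204, from smoke and air groups alike. The same 5 rats held the 5 highest mean levels of 4 basal cell markers (Krt5, Krt14, Krt15 and Trp63), cells of the large airways. That mean level was 8.47 in rat 604, 8.15 in rat 203 and 7.37 in rat 204. It was 7.01 in rat 302 and 6.60 in rat 104, with 6.59 in rat 405 and 6.57 in rat 406 close behind. By group it ran between 5.86 and 8.15 in smoke + air lungs, 5.69 and 6.59 in smoke + Iraqi sand, 5.79 and 8.47 in smoke + silica, 5.70 and 7.01 in air + Iraqi sand, 5.81 and 6.12 in air + silica, and 5.72 and 6.60 in air + air. The highest basal marker level and the highest Aldh3a1 were in the same smoke + silica lung. All 4 basal markers were above the group mates' mean in each of these 5 rats, and 3 of 4 were at least 2-fold above it in rats 604, 203 and 302. Averaged over particles, 0 of 4 basal markers passed the smoke test, 2 had an unadjusted p under the threshold, and their median difference was 0.52, against -0.02 over all genes. Of all genes, 6.39% passed and 24.5% had an unadjusted p that low. In that comparison the 9 markers of club and secretory cells of the airway had 2 that rose and 1 that fell, with a median difference of 0.88. Without rats 302, 104 and 604 these were 4 and 1, with a median of 1.47, where 8.31% of all genes passed. The mean level of these 9 markers was 11.19 in rat 604, below rats 405 and 602 at 11.86 and 11.24. The 5 lungs with the highest Aldh3a1 were thus not the 5 highest for the club and secretory list. RMA values have no zero, so no marker could be read as absent. In a piece of lobe, more airway cells and more Aldh3a1 RNA per cell cannot be told apart, and the part of these cells in the Aldh3a1 difference was not tested.

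**Figure D3:**
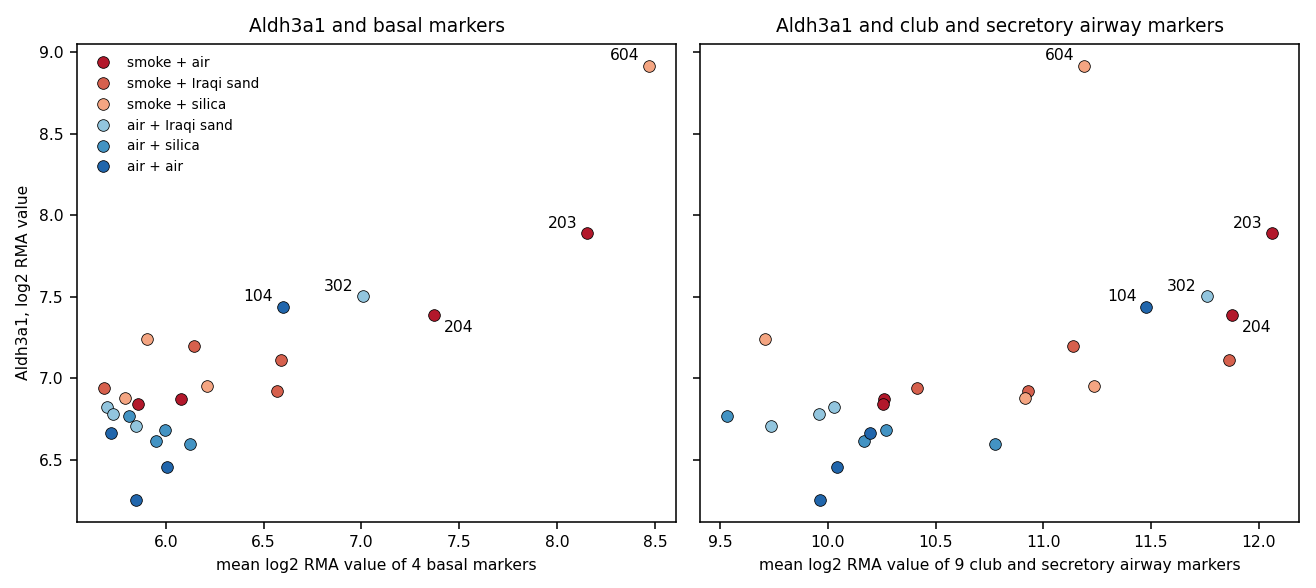
Level of Aldh3a1 (vertical axis, log2 value after RMA) against the mean log2 level of 4 basal markers (left) and of 9 club and secretory airway markers (right), 1 dot per rat, coloured by exposure group. The 5 rats with the highest Aldh3a1 are numbered and are also the 5 with the highest basal marker mean. They are not the 5 with the highest club and secretory marker mean. Neither axis starts at 0.

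Lrat makes the retinyl esters in which vitamin A is stored, and AhR ligands such as dioxin are known to lower stored vitamin A in rodents. Its levels were 5.97, 6.12, 6.22 and 6.18 in smoke + air lungs, against 5.95, 6.38, 7.76 and 6.41 in air + air lungs. The value of 7.76 was again rat 104, and the difference was -0.50 ± 0.30 (SE, adjusted p = 0.635), and -0.12 without that rat. Lrat was 6.25 ± 0.38 in smoke + Iraqi sand lungs and 6.46 ± 0.50 in air + Iraqi sand lungs, and 6.07 ± 0.37 in smoke + silica lungs and 6.13 ± 0.24 in air + silica lungs (SD, n = 4 each). Averaged over particles, it was -0.26 ± 0.17 (SE, adjusted p = 0.370). Without rat 104 the averaged difference was -0.13, against -0.26 with it. Rat 104 also carried heart muscle RNA: 7 of 8 heart markers were at least 2-fold above its group mates, at a mean level of 9.78 against 6.30. Rat 302 had 7 of 8 such markers raised, at 9.36 against 5.77, and Lrat there was 5.88. By group, the mean level of the heart markers reached 7.70 in smoke + air, 6.88 in smoke + Iraqi sand, 6.73 in smoke + silica, 9.36 in air + Iraqi sand, 7.02 in air + silica and 9.78 in air + air lungs. The part of that tissue in the values of Lrat was not tested.

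Neither gene that restrains the receptor passed a test with smoke. Ahrr was the dimmest member, with a mean of 4.97 at the 7.62nd percentile of brightness. Its levels were 4.86, 4.91, 4.80 and 5.07 in smoke + air lungs and 4.70, 4.95, 5.00 and 4.94 in air + air lungs, which overlapped and differed by 0.01 ± 0.09 (SE). With silica, Ahrr was 5.05, 5.12, 5.03 and 5.07 in smoke + silica lungs, against 4.94, 4.80, 4.87 and 4.87 in air + silica lungs. These groups did not overlap, but the share of all genes without overlap there was not counted. The difference was 0.20 ± 0.09 (SE, a fold of 1.15), and the adjusted p was 0.540. With Iraqi sand, Ahrr was 5.02 ± 0.09 in smoke + Iraqi sand lungs and 5.03 ± 0.19 in air + Iraqi sand lungs (SD, n = 4 each). Averaged over particles, Ahrr differed by 0.07 ± 0.05 (SE, adjusted p = 0.401).

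Tiparp was 9.47, 9.47, 9.43 and 9.30 in smoke + air lungs and 9.50, 9.51, 9.13 and 9.53 in air + air lungs. The groups overlapped and their means were within 0.01 of each other, with an SE of 0.16. Tiparp was 9.43 ± 0.12 in smoke + Iraqi sand lungs and 9.16 ± 0.53 in air + Iraqi sand lungs, and 9.46 ± 0.08 in smoke + silica lungs and 9.38 ± 0.12 in air + silica lungs (SD, n = 4 each). Averaged over particles, the difference was 0.12 ± 0.09 (SE, adjusted p = 0.464), and without rats 302, 104 and 604 it was -0.01. Rat 302 held the lowest value of all, 8.38, against 9.42 ± 0.10 in its air + Iraqi sand mates (SD, n = 3). A second, dimmer Tiparp probe set gave an averaged smoke difference of 0.48 ± 0.18 (SE, adjusted p over all single-symbol probe sets = 0.116) and 0.96 ± 0.31 under Iraqi sand (SE, adjusted p = 0.103). The dimmer probe set was 8.53 ± 0.40 in smoke + Iraqi sand lungs, against 7.57 ± 0.94 in air + Iraqi sand lungs (SD, n = 4 each), where its lowest value was 6.17, in rat 302. Without rat 302 the difference under Iraqi sand was 0.49. Over the 24 arrays the 2 Tiparp probe sets had a Pearson r of 0.75 and a Spearman rho of 0.20. They ranked the rats differently, and the size of the Tiparp difference depended on which of them stood for the gene.

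The receptor and its partner differed by small amounts. Ahr was 7.76, 7.98, 7.92 and 7.76 in smoke + air lungs and 8.03, 7.89, 7.41 and 7.67 in air + air lungs. The ranges overlapped and the difference was 0.10 ± 0.18 (SE). Ahr was 7.83 ± 0.30 in smoke + Iraqi sand lungs and 7.52 ± 0.29 in air + Iraqi sand lungs, and 7.78 ± 0.31 in smoke + silica lungs and 7.59 ± 0.25 in air + silica lungs (SD, n = 4 each). Averaged over particles, Ahr differed by 0.20 ± 0.10 (SE, 95% interval -0.01 to 0.41, adjusted p = 0.226). The second Ahr probe set was dimmer and gave -0.01 ± 0.05 (SE). The 2 Ahr probe sets did not follow each other over the rats, with an r of -0.18 and a rho of -0.11, so the array gives no single reading of Ahr.

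Arnt, which pairs with AhR and also with the hypoxia-inducible factors, had the smallest p of any member. Its levels were 7.74, 7.57, 7.40 and 7.81 in smoke + Iraqi sand lungs, against 7.27, 7.13, 7.38 and 7.07 in air + Iraqi sand lungs. The groups did not overlap, but the share of all genes without overlap there was not counted. The difference was 0.42 ± 0.11 (SE, a fold of 1.34, unadjusted p = 0.00114), and its adjusted p of 0.0623 missed the threshold. It passed when rat 104 was left out of the shared fit (adjusted p = 0.0360) and when rat 304 was left out (0.48 ± 0.12 SE, adjusted p = 0.0475), where 1.29% and 1.6% of all genes passed. In rats without particles, Arnt was 7.56, 7.31, 7.45 and 7.22 in smoke + air lungs and 7.45, 7.35, 6.95 and 7.38 in air + air lungs, a difference of 0.10 ± 0.11 (SE). With silica, Arnt was 7.69, 7.69, 7.47 and 7.64 in smoke + silica lungs and 7.68, 7.45, 7.57 and 7.75 in air + silica lungs, a difference of 0.01 ± 0.11 (SE). The smoke difference was thus largest with Iraqi sand, but its excess there over that without particles was 0.32 ± 0.16 (SE, adjusted p = 0.575). Averaged over particles, Arnt differed by 0.18 ± 0.06 (SE, adjusted p = 0.0967).

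The particles were compared with no particles within air and averaged over smoke and air. For Iraqi sand within air 0 members passed, against 0.0281% of all genes, with 1, Cyp1b1, at an unadjusted p under the threshold (-0.52 ± 0.25 SE, adjusted p = 0.485, and -0.19 without rat 104). An unadjusted p that low was found for 10.2% of all genes. For silica within air 0 passed, against 0.141%, with 2, Cyp1b1 and Arnt, at an unadjusted p under it, against 5% of all genes. Averaged over smoke and air, 0 members passed for Iraqi sand, where 0% of all genes passed. An unadjusted p under the threshold was found for 5.22% of all genes and for 1 member, Cyp1b1 (-0.37 ± 0.18 SE, adjusted p = 0.952, and -0.20 without rat 104). For silica averaged, 0 members passed against 0.345%, with 2, Cyp1a1 and Arnt, at an unadjusted p under it, against 11.7% of all genes.

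Cyp1a1 and Arnt had the 2 smallest unadjusted p with silica averaged over smoke and air. Averaged over smoke and air, Cyp1a1 differed by -0.61 ± 0.23 with silica (SE, a fold of 0.654, 95% interval of the log2 difference -1.09 to -0.14, unadjusted p = 0.0143, adjusted p = 0.295). Arnt differed by 0.29 ± 0.08 (SE, a fold of 1.22, unadjusted p = 0.00166, adjusted p = 0.133), and without rat 302 in the shared fit its adjusted p was 0.0472, where 3.81% of all genes passed. Cyp1b1 differed by -0.61 ± 0.25 between air + silica and air + air lungs (SE, adjusted p = 0.898), where rat 104 is the highest control. Without rat 104 that difference was -0.28 (adjusted p = 1.00). Iraqi sand averaged over smoke and air gave -0.36 ± 0.23 for Cyp1a1 and 0.09 ± 0.08 for Arnt (SE). The silica and sand comparisons share the rats without particles, so their values are not independent.

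**Figure D4:**
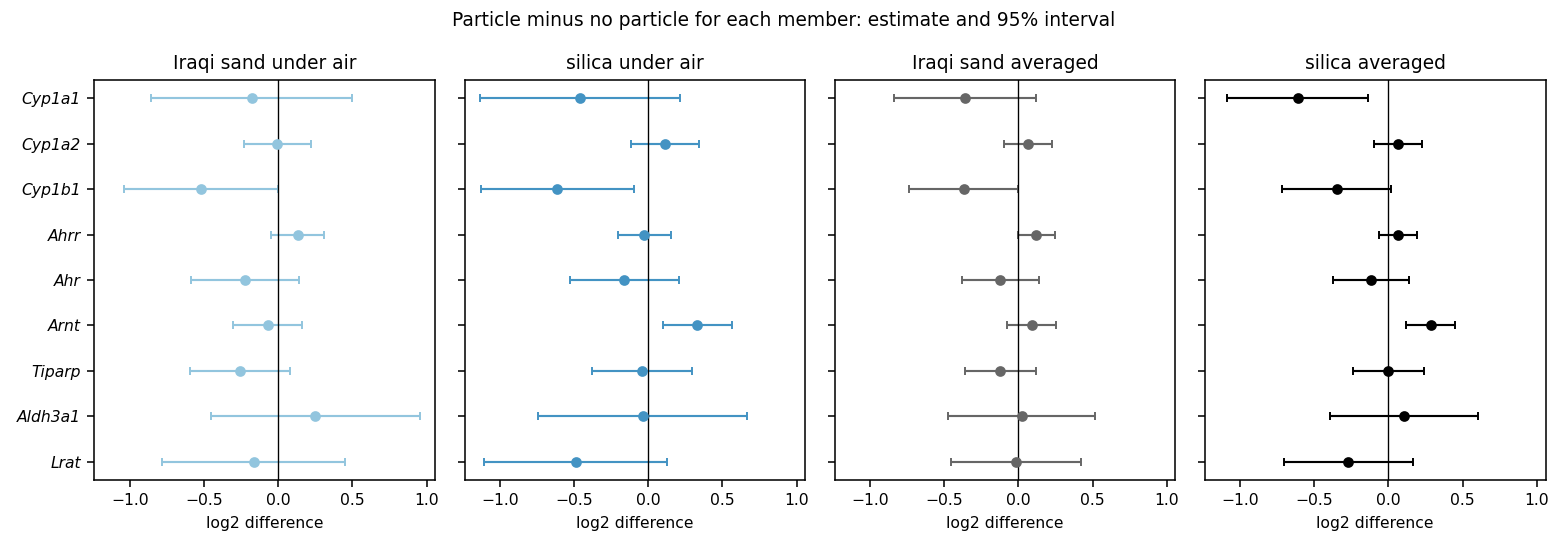
Difference in log2 level between particle and no particle (horizontal axis) for each of the 9 genes, for Iraqi sand and silica in rats without smoke and averaged over smoke and air. Points are limma estimates and bars are 95% intervals. With silica averaged, the interval of Cyp1a1 lies below 0 and that of Arnt above 0, and neither passes the adjusted threshold.

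Both combined exposures were set against air by both routes. With smoke and Iraqi sand 0 members passed, against 0.978% of all genes, with 1, Arnt, at an unadjusted p under the threshold (0.35 ± 0.11 SE, adjusted p = 0.167), against 10.9% of all genes. With smoke and silica 0 passed, against 3.77%, with 3 at an unadjusted p under it, against 18.5% of all genes. Those 3 were Cyp1a1 at -0.83 ± 0.32 (SE, adjusted p = 0.163), Arnt at 0.34 ± 0.11 (SE, adjusted p = 0.0961) and Aldh3a1 at 0.80 ± 0.34 (SE, adjusted p = 0.206). Without rat 604 the Aldh3a1 difference was 0.32 (adjusted p = 0.642). Arnt did not overlap between smoke + silica and air + air lungs, and nor did Ahrr, at 0.17 ± 0.09 (SE, adjusted p = 0.295). The share of all genes without overlap between these groups was not counted, so no weight is put on it. Arnt passed without rat 302 in the shared fit (adjusted p = 0.0493), where 12.5% of all genes passed. With array quality weights Cyp1a1 passed as lower with smoke and Iraqi sand (-0.96 ± 0.27 SE, adjusted p = 0.0322). It also passed as lower with smoke and silica (-1.03 ± 0.28 SE, adjusted p = 0.0141), where Arnt and Ahrr passed as higher. At that setting 8.24% and 17.4% of all genes passed in the 2 comparisons. The interaction of smoke with Iraqi sand had 0 members past the threshold, against 0.00703% of all genes. That with silica had 0, against 0% of all genes, with 2.24% of all genes and 0 members at an unadjusted p under the threshold. The interaction intervals were wide: for Cyp1a1 the effect of smoke with silica differed from that without particles by -0.31 ± 0.46 (SE).

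The members did not vary as 1 block over the 24 rats. Of 36 pairs, 0 had a correlated level after adjustment over the pairs, by a two-sided permutation test with 100000 resamples, and 4 had an unadjusted p under the threshold. The highest coefficient was that of Cyp1b1 with Aldh3a1, at a Pearson r of 0.59 and a Spearman rho of 0.58 (permutation p = 0.00771 and 0.00312, adjusted p = 0.0964 and 0.112). Without the 2 rats farthest from the median of Cyp1b1 that r was 0.42, and on deviations from the group means it was 0.67 (adjusted p = 0.183). Ahr with Tiparp had an r of 0.53 and a rho of 0.23 (permutation p = 0.00526 and 0.288, adjusted p = 0.0964 and 0.777), and without rats 302 and 402 the r was 0.26, so it rests on those rats. Cyp1a1 and Cyp1b1, both classic targets, had an r of -0.02 and a rho of 0.02 (permutation p = 0.926 and 0.943, adjusted p = 0.948 and 0.993), and without the 2 rats farthest from the median of Cyp1a1 the r was -0.28.

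The 3 genes whose levels were most like each member over the 24 arrays were taken from all other genes, as a description with no test. For Cyp1a1 they were Ackr3 (r = 0.75, rho = 0.79), Egfl7 (r = 0.72) and Srgn (r = 0.70). For Aldh3a1 they were Entpd5, Chst5 and the basal keratin Krt5, each at an r of 0.89, and without rats 302, 104 and 604 Krt5 stood at 0.77. For Arnt they were Ociad1 (r = 0.88), the cohesin loader Nipbl (r = 0.87) and Kdsr (r = 0.85). Tiparp had the closest neighbours, Dynlt3, Ppid and Hnrnpm at an r of 0.95 each, but their r was 0.76, 0.76 and 0.77 without rat 302 alone. For Cyp1b1 the nearest was the Wnt antagonist Sfrp1, at an r of 0.80 in 24 rats and 0.61 without rats 302, 104 and 604. For Lrat it was the transcription factor Mef2c, at 0.79 and 0.55. For Ahr it was Syne1 (r = 0.78), for Ahrr Prex1 (r = 0.77) and for Cyp1a2 Sowaha (r = 0.80). No member was among the 3 nearest of another.

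Other genes around the pathway were read from lists, in the smoke comparison averaged over particles. In it 6.39% of all genes passed, and the median difference of all genes was -0.02. Counts of 1 in lists of 11 or 9 genes are near that share. Of 11 partners and chaperones of AhR, 0 rose and 1 fell, with a median of -0.02. The one that fell was Arnt2, a paralogue of Arnt, at -0.33 ± 0.09 (SE, adjusted p = 0.0317), and it missed the threshold when any of rats 103, 104, 203, 404, 405, 502, 503 or 603 was left out, at an adjusted p of up to 0.0611. Of 9 further genes known to respond to AhR ligands, 1 rose and 0 fell, with a median of 0.10. It was Xdh, xanthine dehydrogenase, at 0.20 ± 0.06 (SE, adjusted p = 0.0447), and it missed the threshold without any 1 of 20 of the 24 rats. Nqo1, the quinone reductase shared by the AhR and NRF2 pathways, named here after its value was seen, differed by 0.39 ± 0.14 (SE, adjusted p = 0.103).

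Of 21 other enzymes of foreign compound metabolism, 2 rose and 2 fell, with a median of -0.03, against 6.39% of all genes that passed. Fmo2, a gene of the flavin monooxygenase family, rose by 0.57 ± 0.15 (SE, adjusted p = 0.0243, and 0.126 on the 19 arrays with an RNA integrity number), and Cyp3a9 by 0.47 ± 0.13 (SE, adjusted p = 0.0364). Cyp4b1, a monooxygenase of club cells, fell by 0.71 ± 0.14 (SE, adjusted p = 0.00302). Aldh3a2, the fatty aldehyde dehydrogenase related to Aldh3a1, fell by 0.12 ± 0.03 (SE, adjusted p = 0.0384), and missed the threshold without rats 302, 104 and 604 (adjusted p = 0.0531). Cyp3a9 missed it without any 1 of 11 rats and Aldh3a2 without any 1 of 14. Without rats 302, 104 and 604 the list count was 5 that rose and 1 that fell, where 8.31% of all genes passed. Cyp4b1 is itself in the list of 9 club and secretory markers, where it is the 1 that fell, while the median of that list was 0.88.

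Of 16 retinoid genes measured, 2 rose and 0 fell averaged over particles, with a median of -0.08, where 6.39% of all genes passed. Rdh10, the retinol dehydrogenase that starts retinoic acid synthesis, rose by 0.53 ± 0.09 (SE, adjusted p = 9.12e-04), and by 0.68 ± 0.15 in rats without particles (SE, adjusted p = 0.0286). Cyp26b1, which degrades retinoic acid, rose by 0.69 ± 0.18 averaged (SE, adjusted p = 0.0223, and 0.107 on those 19 arrays), against 0.30 ± 0.31 in rats without particles (SE, adjusted p = 0.876). The call for Rdh10 without particles was lost when any 1 of 7 rats was left out and with the mean of its probe sets (0.34, adjusted p = 0.112). In rats without particles, where 0.893% of all genes passed, 1 of 16 retinoid genes rose, and 0 of 11 partners, 0 of 9 responsive genes and 0 of 21 enzymes passed, with 1, 3 and 5 at an unadjusted p under the threshold by the same limma test, against 9.95% of all genes. Of 15 other genes of the protein family that holds AhR and ARNT, which includes the circadian clock factors, 1 rose and 4 fell averaged over particles, Arnt2 of the partner list among them, and 2 of these 5 calls were left when rat 103, 502 or 603 was left out. In rats without particles 1 of the 15 rose and 1 fell, and 1 of these 2 calls was left when rat 102, 103, 201, 204 or 205 was left out.

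Facts of the whole set bear on these values. Array medians lay between 7.26 and 7.32, and the 19 arrays with a recorded RNA integrity number had 8.1 to 9.8. Lung markers such as surfactant genes were bright in all 24 arrays. Rat 302 stood apart from the rest, with a highest correlation of 0.963 to any other array, against at least 0.988 for every other rat. Rats 104 and 302 carried high Myl7, an atrial myosin, at 12.04 and 11.51, and rat 604 high Mki67, a proliferation gene, at 8.90. These 3 rats are the ones left out together in the values given above. Smoke + air rats 203 and 204, at a Myl7 of 9.15 and 9.33, were kept, so not every lung with raised Myl7 was left out.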

How the data were processed

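Lung RNA of 24 rats was hybridised to 1 array each, and groups and rat numbers were taken from the sample labels. The deposited values are log2 values made with RMA, per the submitters' processing notes, and its version is not given in the sources used here. RMA corrects background, forces all arrays to 1 distribution and summarizes probes, so a shift shared by most genes is removed and dim probe sets are compressed. The labels name no batch, date or hour of collection.

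Of 31099 probe sets, 57 controls were left out, 20826 had 1 gene symbol in the platform annotation, 436 several and 9780 none. The brightest single-symbol probe set stood for each of 14217 genes, and Ahr and Tiparp had 2 such probe sets. All 9 members matched RefSeq (GRCr8) by Entrez number, and 7 of 9 had a promoter window. One model of 6 group means was fitted to the 24 arrays (R 4.3.3, limma 3.58.1, functions lmFit and eBayes), with 18 residual degrees of freedom and 12 contrasts, at an adjusted p under 0.05 and with no filter on dim probe sets. The rats are separate animals, so the spread behind each p-value is that between animals, and 4 rats per group limit the precision. The fit was tested on simulated data. Correlations, searches for letters and plots used Python 3.11.15, NumPy 2.4.6 and matplotlib 3.10.9.

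The members, gene lists and rats left out together were chosen with earlier results of these data known. Named genes were all members, up to 4 genes of each list that passed with smoke, and the 3 genes most like each member. Cxcl1 and Gpnmb were named as smoke-responsive genes of the same arrays, and Myl7, Mki67 and Krt5 for rats 302, 104 and 604. Alternatives were shrinkage with trend and robust, a filter at the median brightness, probe sets of a gene averaged, centring, quantile normalization once more, array quality weights, only the arrays compared, a covariate for RNA integrity on 19 arrays, those arrays without it, leaving out rats 302, 104 and 604, and leaving out each rat. Running them on the gene lists, and the values of single genes without 1 rat, were chosen after seeing the data.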

Additional observations from a re-analysis of the deposited data

Results flagged for a closer look

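Values of 1 rat far from its 3 group mates were looked for in 54 sets, each 1 member in 1 group of 4 rats. By Dixon's criterion at the 95% level 3 of the 54 stood out, which is near the share of about 1 in 20 that chance alone gives. Tiparp was 8.38 in rat 302 of the air + Iraqi sand group, against 9.42 ± 0.10 in its mates (SD, n = 3). Tiparp was 9.13 in rat 104 of the air + air group, against 9.51 ± 0.01 in its mates (SD, n = 3). Aldh3a1 was 7.50 in rat 302, against 6.77 ± 0.06 in its mates (SD, n = 3).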

How the results depend on the processing

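The 108 member results, 9 genes in 12 comparisons, were recomputed under 34 settings. As 0 members passed in the report's setting, no call could be lost, 15 of the 3567 values gained a call, and 0 called values reversed. In 167 values, from 41 results, the sign changed with no call before or after, the cause was not tested, and these are not counted as reversals. With array quality weights the members called were 1 for smoke under air, 2 for smoke averaged, 1 for silica averaged, 1 for smoke and Iraqi sand and 3 for smoke and silica, of 9 each. The shares of all genes called at that setting were 7.87%, 18.6%, 5.93%, 8.24% and 17.4% in the same order. Without rats 302, 104 and 604 they were 1 for smoke under air and 2 for smoke averaged, against 1.96% and 8.31% of all genes. Over the 24 fits that left out 1 rat, the count ran from 0 to 1 for smoke under Iraqi sand, silica averaged, and smoke and silica, and was 0 in the other 9 comparisons. Of the calls gained, 6 were Arnt, 4 Aldh3a1, 2 Cyp1b1, 2 Cyp1a1 and 1 Ahrr. Both Cyp1a1 calls were decreases with array quality weights, at -0.96 for smoke and Iraqi sand and -1.03 for smoke and silica. The calls of the other members were increases. With probe sets of a gene averaged, 1 of 36 pairs correlated (Arnt and Tiparp, r = 0.66, adjusted p = 0.00756), against 0 with the brightest.

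Counts of genes called moved more. Smoke averaged called 908 genes, between 210 with the RNA integrity covariate and 2651 with array weights, and 586 to 1463 when 1 rat was left out. Smoke under air called 127, between 42 and 1119 at the same 2 settings and 46 to 269 with 1 rat left out. Smoke under Iraqi sand called 184, between 0 with only the arrays compared and 553 with weights, and 30 to 703 with 1 rat left out. Smoke and silica called 536, between 120 and 2477, and 200 (without rat 604) to 1777 (without rat 302) with 1 rat left out. Smoke and Iraqi sand called 139, between 7 and 1172. Silica averaged called 49, between 2 and 843, and 542 without rat 302. The other 6 comparisons called at most 20 genes, and with weights up to 250. No paired analysis was possible because no rat number is shared between groups. The 95% intervals for smoke under air spanned -0.74 to 0.61 for Cyp1a1, -0.16 to 1.25 for Aldh3a1 and -1.12 to 0.11 for Lrat, so smaller effects of smoke on these genes were not detectable at this spread.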

Other observations

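The AhR members are expressed in several cell types of the lung, and marker lists of these types were read in the smoke comparison averaged over particles. In that comparison 6.39% of all genes passed, and 24.5% had an unadjusted p under the threshold. Of 8 macrophage markers 6 rose and 0 fell, with a median difference of 0.57 in log2 level, against -0.02 over all genes. Of 5 neutrophil markers 1 rose, and of 7 ciliated cell markers 1 rose. Of 7 alveolar type 1 markers 2 fell, of 10 alveolar type 2 markers 1 fell, and of 9 endothelial markers 1 fell. Of 10 fibroblast and pericyte markers 1 rose. None of 6 proliferation markers and none of 8 heart muscle markers passed limma's test, with 4 and 0 at an unadjusted p under the threshold. The part of these cells in the levels of the AhR members was not tested.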
